A study of Mus musculus with 6 samples.

Results

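The genes described here are 34 genes of DNA replication and of S phase, the stage of the cell cycle in which the genome is copied. They were taken as a list of symbols, and an array probe was assigned to a gene through its accession. All 34 had a probe, with 39 probes in all, and all 39 were well above background on all 6 arrays. The list therefore makes up 34 of the 14265 genes tested. Ccne1, Cdc6, Rfc4, Slbp and Uhrf1 had 2 probes each, and each is given by its brighter probe over all arrays unless the second is named.

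Total RNA came from C2C12, a line of mouse myoblasts that stop dividing and form myotubes under differentiation conditions. Cells of 3 samples had been transfected with an siRNA that targets lncMGPF, a long noncoding RNA (si-lncMGPF), and cells of the other 3 with a control siRNA (si-NC). All 6 were taken at day 2 of differentiation, carried no other labelled treatment or genotype, and were read on 1-colour Agilent expression arrays. Nothing in the labels tells whether the 3 replicates of a group came from separate cultures. P-values thus rest on the spread among these samples alone, and that spread may be technical. The design addresses how gene expression responds to lncMGPF knockdown in differentiating myoblasts, and the level of lncMGPF itself was not analysed here.

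Replication starts with licensing, in which the origin recognition complex, CDC6 and CDT1 load the ring of MCM proteins onto DNA. CDC45 and the GINS complex then turn that ring into the active helicase, and primase, DNA polymerases, a sliding clamp with its loader, a flap nuclease and a ligase copy both strands. Cyclin E with CDK2 drives entry into S phase, largely through E2F transcription factors, which act on many of the genes listed here. Myoblasts shut this programme down as they leave the cell cycle, in part through the retinoblastoma protein and CDK inhibitors.

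Values are given as relative signal, which is the background-subtracted signal of a probe divided by the 75th percentile of the same array, or as log2 differences of it. The 75th percentile was 923, 580.2 and 492.1 intensity units on si-lncMGPF replicates 1, 2 and 3, and 930.7, 688.2 and 755.1 on si-NC replicates 1, 2 and 3. The scan identifiers placed si-lncMGPF replicates 2 and 3 on slide 2, and si-lncMGPF replicate 1 with all si-NC arrays on slide 1. Negative control spots averaged 37.29 and 42.49 intensity units on slide 2, against 20.1 to 21.82 on slide 1. All 8 myoblast and myotube markers examined (Myod1, Myog, Des, Ckm, Acta1, Myh3, Tnnt3 and Mymk) were above background on all 6 arrays. Of the markers of other cell types, Adipoq and Cdh5 were above background on 0 arrays, Plin1 on 1, Ptprc on 5, and Fabp4, Pecam1 and 1 of 2 probes each of Kdr and Adgre1 on 6. Precision is limited by the number of arrays, and in bulk RNA fewer cycling cells and less RNA per cycling cell cannot be told apart.

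None of the 34 S phase genes passed the test of si-lncMGPF against si-NC. Limma called 0 of the 39 probes at an adjusted p below 0.05, where 26 of 24661 tested probes were called (0.105%, of which 0.077% lower and 0.0284% higher in si-lncMGPF). At an unadjusted p below 0.05 there were 3 S phase genes, Ccne2 and Cdc6 lower and Tyms higher in si-lncMGPF, against 14.2% of all tested genes. The log2 differences of the 34 genes had a median of 0.0063, with 19 positive and 15 negative, and ran from -1.15 for Ccne2 to 0.38 for Tyms. All tested genes had a median of 0.0196, and 54% of them were positive. The median size of the difference, whatever its sign, was 0.0877 for S phase genes and 0.1347 for all genes.

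These counts differed with how slide was treated. With slide as a block, where the estimate is that of si-lncMGPF replicate 1 against the si-NC arrays of its slide, limma again called 0 S phase probes (10 of 24661 probes in all, 0.0405%). That estimate rests on 1 si-lncMGPF array. Its p-values hold no spread between si-lncMGPF arrays of slide 1, so genes are not counted by unadjusted p. Log2 differences were negative for Ccne1, Ccne2, Cdc6, Cdt1, Tk1 and Rrm2, among others, and positive for the clamp loader gene Rfc3, among others. The 34 genes then had 7 positive and 27 negative log2 differences with a median of -0.2154, while all genes had a median of -0.0725 and 39.3% were positive. With slide as a random block there were again 7 positive, with a median of -0.1597, while all genes had a median of -0.0492 and 41.1% were positive. In that fit 4 of the 39 S phase probes had an unadjusted limma p below 0.05, a smaller share than the 3959 of 24661 among all tested probes. On the slide 1 arrays alone there were 23 genes, against 34.2% of all genes, and the smallest limma adjusted p was 0.0856.

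**Figure D1:**
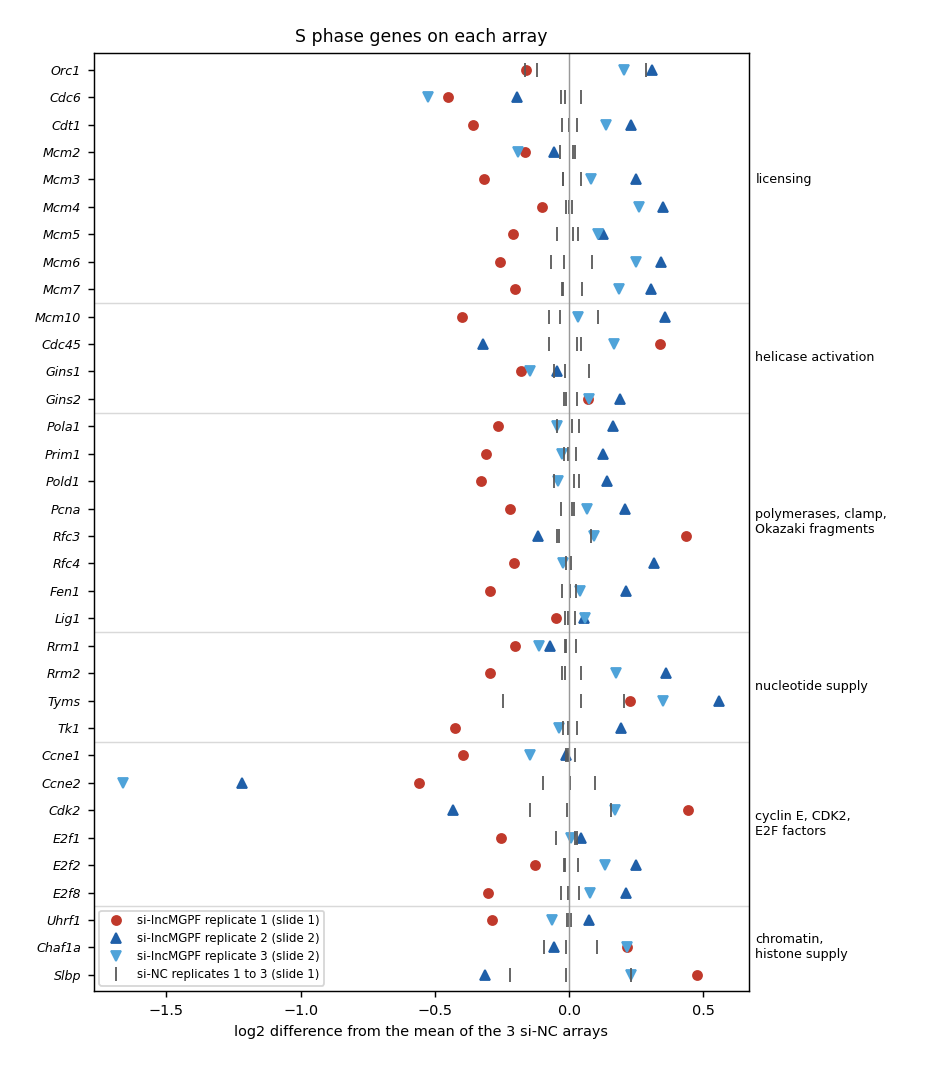
Log2 difference of each of the 34 S phase genes from the mean of the 3 si-NC arrays, with genes down the page by role. Circles and triangles are the 3 si-lncMGPF arrays and grey ticks the 3 si-NC arrays. Circles (slide 1) lie left of the ticks for most genes, while triangles (slide 2) lie right of them for many, and Ccne2 has the lowest value of the 34 on each si-lncMGPF array.

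In 6 of the 34 genes the 3 si-lncMGPF arrays all lay on 1 side of the 3 si-NC arrays, where 22.4% of all tested genes did so. Ccne2, Cdc6, Mcm2 and Rrm1 were lower without overlap (12.7% of all genes) and Tyms and Gins2 higher (9.7% of all genes). The other 28 S phase genes overlapped between the groups. The list's share of 17.6% was not above that of all genes.

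**Figure D2:**
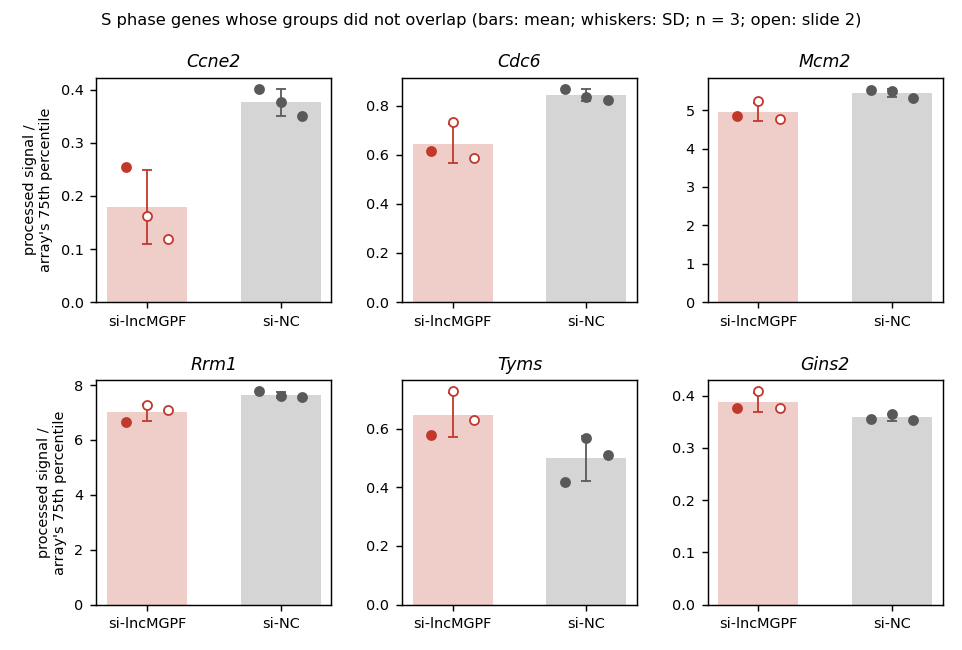
Relative signal (processed signal divided by the 75th percentile of the array) of the 6 S phase genes whose groups did not overlap. Bars are means and whiskers SD over 3 arrays; red is si-lncMGPF, with open points for slide 2, and grey is si-NC. Ccne2 is 2.21-fold lower in si-lncMGPF, and the other 5 differ by at most 1.31-fold.

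Cyclin E2, encoded by Ccne2, is 1 of the 2 E-type cyclins that activate CDK2. Its relative signal was 0.255, 0.1615 and 0.119 on si-lncMGPF replicates 1, 2 and 3, against 0.4023, 0.3767 and 0.3513 on si-NC replicates 1, 2 and 3. Every si-lncMGPF array was below every si-NC array, and the slide 2 arrays were lowest. The log2 difference was -1.15 (SE 0.26, 95% interval -1.77 to -0.52), and it did not pass limma's test (adjusted p = 0.195). It was -0.56 on slide 1, from 1 si-lncMGPF array, and -1.44 for the slide 2 arrays, which were set against the si-NC arrays of slide 1. Without si-lncMGPF replicate 1 it passed limma's test (log2 difference -1.44, adjusted p = 0.00592). In that fit group and slide cannot be told apart, and 16.6% of all probes were called. With array weights, which limma fitted from the data, 5 S phase probes passed, Ccne2 and Cdc6 lower and Mcm4, Mcm6 and the second Rfc4 probe higher, in a fit that called 41.2% of all probes.

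The rest of the cyclin E and E2F genes gave no such difference. Cyclin E1, from Ccne1, had 4.748, 6.192 and 5.65 on the si-lncMGPF arrays and 6.224, 6.337 and 6.192 on the si-NC arrays. Replicates 1 and 3 of si-lncMGPF were below every si-NC array, and replicate 2 equalled the lowest of them at the digits given. Its log2 difference was -0.19 (SE 0.12, 95% interval -0.46 to 0.09, limma adjusted p = 0.455), and a second, dimmer probe had 0.18. Cdk2, which encodes the kinase that both cyclins E activate, had 0.06, with 0.44 on slide 1 and -0.13 on slide 2. The activators E2f1 and E2f2 had log2 differences of -0.07 and 0.08, and E2f8, an atypical E2F that represses their targets, had -0.01. With Ccne2 included, the 6 cyclin E, CDK2 and E2F genes had a median of -0.04, at -0.28 on slide 1 and -0.03 on slide 2.

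Among the 9 licensing genes, Cdc6 had the lowest log2 difference. It encodes the ATPase that helps the origin recognition complex load the MCM ring. Its relative signal was 0.6157, 0.7345 and 0.5846 on si-lncMGPF replicates 1, 2 and 3, against 0.8686, 0.8329 and 0.8236 on si-NC replicates 1, 2 and 3. All 3 si-lncMGPF arrays, which lay on both slides, were below all si-NC arrays, which lay on slide 1 alone. The log2 difference was -0.39 (SE 0.11, 95% interval -0.66 to -0.13), which is 1.31-fold lower and did not pass (limma adjusted p = 0.228). It was -0.45 on slide 1, from 1 si-lncMGPF array, and -0.36 for the slide 2 arrays, which were set against the si-NC arrays of slide 1. A second Cdc6 probe had 0.04 with overlapping groups, so the mean of both probes was -0.18.

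Mcm2, a subunit of the MCM ring, had 4.856, 5.234 and 4.773 on the si-lncMGPF arrays and 5.527, 5.5 and 5.317 on the si-NC arrays. The groups did not overlap, with a gap that was small beside the levels. The log2 difference was -0.14 (SE 0.08, 95% interval -0.34 to 0.06, limma adjusted p = 0.445). The other 5 subunits split by slide. Mcm4 had 6.407, 8.745 and 8.227 on the si-lncMGPF arrays and 6.815, 6.92 and 6.87 on the si-NC arrays. Its si-lncMGPF replicate 1 was below and replicates 2 and 3 above every si-NC array, with log2 differences of -0.10 on slide 1 and 0.30 on slide 2.

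Mcm3, Mcm5, Mcm6 and Mcm7 showed the same arrangement, with -0.32, -0.21, -0.26 and -0.20 on slide 1 and 0.17, 0.12, 0.29 and 0.24 on slide 2. Over all arrays these 4 had log2 differences of 0.00, 0.01, 0.11 and 0.10. Cdt1, the other loading factor, had -0.36 on slide 1 and 0.18 on slide 2. Orc1, the largest subunit of the origin recognition complex, had -0.16 on slide 1 and 0.26 on slide 2, both inside or split across the si-NC range, and 0.12 over all arrays. All 9 licensing genes were negative on slide 1 (median -0.21), where 60.6% of all tested genes were. On slide 2, 7 of 9 were positive (median 0.18), where 8524 of all 14265 tested genes were. Without si-lncMGPF replicate 1, Mcm4, at 0.17 over all arrays, passed limma's test upward (log2 difference 0.30, adjusted p = 0.0368). Group and slide again coincide in that fit, which called 16.6% of all probes.

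The promoters of 30 of the 34 genes were found in a RefSeq table of windows from 250 bases before to 50 after a gene's start (build GRCm38.p6), and Ccne2, Gins1, Gins2 and Mcm4 were not. E2F sites were searched as TTTCCCGC, TTTCGCGC, TTTGCCGC and TTTGGCGC on both strands, where a match on 1 strand can overlap a match on the other. At least 1 match lay in 14 of 30 S phase genes (46.7%), against 2.6% of the 27025 genes in the table. The letters CCAAT, on either strand, lay in 20 of 30 (66.7%), against 41.1% of all genes. A match of letters is not a measured binding site. The 250 bases before the start are shown, with E2F matches in capitals, for 3 genes without overlap (Cdc6, Mcm2 and Tyms) and for Mcm6, the licensing gene with most upstream matches. The Cdc6 stretch lies at chr11:98907901-98908150 (plus strand), Mcm2 at chr6:88898781-88899030 (minus strand), Tyms at chr5:30073626-30073875 (minus strand) and Mcm6 at chr1:128359706-128359955 (minus strand).
Cdc6: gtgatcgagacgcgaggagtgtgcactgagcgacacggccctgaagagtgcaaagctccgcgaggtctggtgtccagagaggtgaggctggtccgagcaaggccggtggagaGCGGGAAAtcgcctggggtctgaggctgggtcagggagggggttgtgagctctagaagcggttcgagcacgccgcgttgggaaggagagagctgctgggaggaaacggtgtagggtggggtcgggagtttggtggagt
Mcm2: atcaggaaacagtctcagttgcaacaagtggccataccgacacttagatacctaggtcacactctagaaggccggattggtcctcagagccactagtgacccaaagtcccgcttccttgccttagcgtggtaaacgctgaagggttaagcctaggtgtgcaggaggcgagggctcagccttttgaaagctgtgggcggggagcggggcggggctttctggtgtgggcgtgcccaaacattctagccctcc
Tyms: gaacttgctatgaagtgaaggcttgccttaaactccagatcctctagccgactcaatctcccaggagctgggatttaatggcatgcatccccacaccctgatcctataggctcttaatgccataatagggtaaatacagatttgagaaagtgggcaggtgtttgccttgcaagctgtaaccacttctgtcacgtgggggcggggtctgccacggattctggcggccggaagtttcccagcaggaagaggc
Mcm6: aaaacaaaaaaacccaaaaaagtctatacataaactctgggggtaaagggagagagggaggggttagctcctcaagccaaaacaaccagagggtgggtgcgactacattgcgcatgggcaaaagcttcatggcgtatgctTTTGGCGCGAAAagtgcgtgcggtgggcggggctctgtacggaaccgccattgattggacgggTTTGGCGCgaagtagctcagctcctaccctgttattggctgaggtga

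Cdc6 held 1 match that begins 138 bases before the start, and Mcm6 held 3, of which the first 2 overlap. Mcm2 and Tyms held none in the stretch shown. The 14 genes with a match had a median log2 difference of 0.02 over all arrays, with -0.23 on slide 1 and 0.09 on slide 2. The 16 genes without a match had -0.004, with -0.24 on slide 1 and 0.08 on slide 2. In each set 12 genes were negative on slide 1, where 60.6% of all tested genes were. Only the letters listed were searched, in the promoter windows alone, so a gene without a match may still hold an E2F site. The split therefore cannot tell genes that E2F factors act on from the others.

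The genes that activate the helicase differed little. Gins2, a GINS subunit, had 0.3758, 0.4084 and 0.3764 on the si-lncMGPF arrays and 0.3555, 0.3652 and 0.3535 on the si-NC arrays. Its groups did not overlap, with si-lncMGPF higher by 0.11 on the log2 scale (limma adjusted p = 0.529). Gins1, another subunit of that complex, had a log2 difference of -0.12, which is the opposite sign. Cdc45 had 0.34 on slide 1 and -0.08 on slide 2, and Mcm10, which helps to activate the helicase, had -0.40 and 0.20. Over all arrays Cdc45 had 0.06 and Mcm10 -0.003.

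Of the 8 genes for polymerases, clamp and Okazaki fragments, none separated the groups, where 22.4% of all tested genes did. All 8 had opposite signs on the 2 slides, as had 48.2% of all tested genes. Pcna, the sliding clamp, had 17.51, 23.61 and 21.37 on the si-lncMGPF arrays and 20, 20.59 and 20.69 on the si-NC arrays. Replicate 1 was below and replicates 2 and 3 above all si-NC arrays, so the mean log2 difference of 0.02 is made of -0.22 and 0.14. Pola1, Prim1 and Pold1, for the DNA polymerase alpha catalytic subunit, the primase and the DNA polymerase delta catalytic subunit, had -0.26, -0.31 and -0.33 on slide 1 and 0.06, 0.05 and 0.05 on slide 2. The flap nuclease gene Fen1 had -0.30 and 0.13, and the ligase gene Lig1 -0.05 and 0.06. The clamp loader gene Rfc4 had -0.20 and 0.15, while its second probe had 0.31 and 0.11. Rfc3, of the same loader, had 0.43 on slide 1 and -0.01 on slide 2. Over all arrays the 8 genes lay between -0.08 for Pold1 and 0.14 for Rfc3, with a median of 0.0013.

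In nucleotide supply, Tyms and Rrm1 separated the groups in opposite directions. Tyms encodes thymidylate synthase, which makes the thymidine nucleotide for DNA. Its relative signal was 0.58, 0.7293 and 0.6313 on si-lncMGPF replicates 1, 2 and 3, against 0.417, 0.5704 and 0.5109 on si-NC replicates 1, 2 and 3. The lowest si-lncMGPF array was just above the highest si-NC array. The log2 difference was 0.38 (SE 0.15, 95% interval 0.02 to 0.73), a 1.3-fold higher signal that did not pass (limma adjusted p = 0.292). It was 0.23 on slide 1 and 0.45 on slide 2.

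Rrm1, the large subunit of ribonucleotide reductase, had 6.642, 7.279 and 7.075 on the si-lncMGPF arrays and 7.778, 7.585 and 7.562 on the si-NC arrays. All si-lncMGPF arrays were lower, by a log2 difference of -0.13 (SE 0.08, 95% interval -0.33 to 0.07, limma adjusted p = 0.471). Rrm2, the small subunit of the same enzyme, had 21.52, 33.9 and 29.8 on the si-lncMGPF arrays and 25.91, 27.2 and 26.09 on the si-NC arrays. It was lowest on replicate 1 and highest on replicates 2 and 3, with -0.29 on slide 1 and 0.27 on slide 2. Tk1, thymidine kinase 1, had -0.43 on slide 1 and 0.08 on slide 2. Over all arrays Rrm2 had 0.08 and Tk1 -0.09.

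Chromatin genes completed the list. Uhrf1, which carries DNA methylation through replication, had -0.29 on slide 1 and 0.0047 on slide 2. Chaf1a, of the chromatin assembly factor that places histones on new DNA, had 0.21 and 0.08. Slbp, which binds the stem-loop of histone mRNAs, had 1.254, 0.7246 and 1.056 on the si-lncMGPF arrays and 1.058, 0.7734 and 0.8932 on the si-NC arrays. Both groups spread widely and overlapped. Over all arrays the log2 differences were -0.09 for Uhrf1, 0.12 for Chaf1a and 0.13 for Slbp.

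The S phase values of the si-lncMGPF arrays differed by slide. On si-lncMGPF replicate 1, 26 of 34 genes were below every si-NC array on its slide, where 49.5% of all tested genes were, and 7 were above (29.1% of all genes). On slide 2, 14 of 34 had both arrays above every si-NC array (34% of all genes) and 4 had both below (20.3% of all genes). The median log2 difference of the list was -0.2154 on slide 1 and 0.0781 on slide 2, with -0.0725 and 0.0571 for all tested genes. In 21 of the 34 genes the value was negative on slide 1 and positive on slide 2, against 34.3% of all genes. The 4 genes that ran the other way were Cdc45, Cdk2, Rfc3 and Slbp, and 9 kept 1 sign on both slides.

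**Figure D3:**
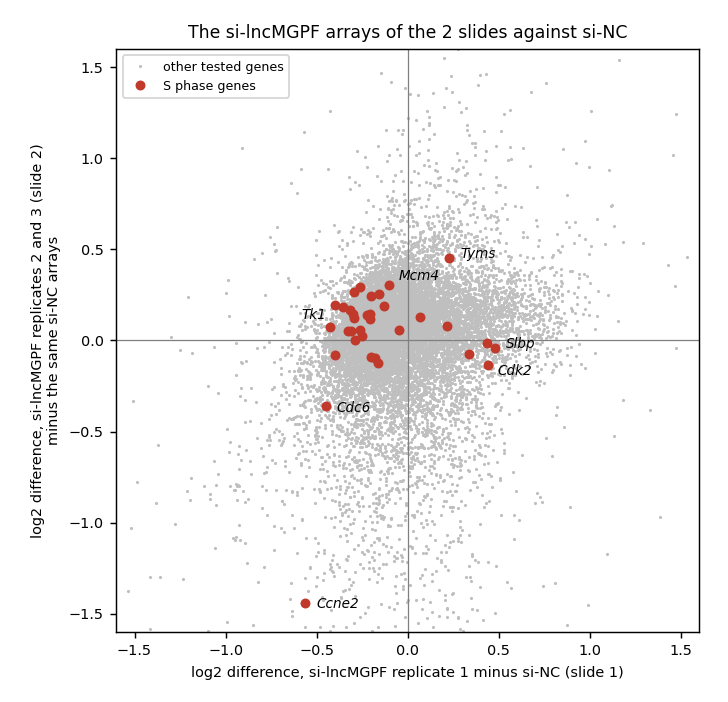
Log2 difference from the mean of si-NC for si-lncMGPF replicate 1 (slide 1, x axis) against the mean of si-lncMGPF replicates 2 and 3 (slide 2, y axis), both against the same 3 si-NC arrays, for 34 S phase genes (red) and the other tested genes (grey). Both axes are limited, so some grey points lie outside the plot. Most red points sit left of 0 and above 0, and Ccne2 and Cdc6 sit below 0 on both axes.

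Signal strength moved with this arrangement. Tested genes were put into 5 bins of equal size by mean signal, and the brightest bin of 2853 genes had medians of -0.1447 on slide 1 and 0.1415 on slide 2, and 15 of the 34 S phase genes belong to it. All 15 were below every si-NC array on replicate 1, where 71.3% of that bin were, and 9 were above on both slide 2 arrays, where 55.9% were. Measured from the median of its own bin, the S phase gene in the middle of the list was at -0.115 on slide 1 (24 of 34 below 0) and at -0.0082 on slide 2 (16 above 0). The part of slide, signal strength or negative control level in these values was not tested, and on slide 2 siRNA and slide cannot be told apart.

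The 2 slide 2 arrays also differed from each other. Replicate 2 was above replicate 3 for 28 of 34 S phase genes, by a median of 0.1256 on the log2 scale. The list's median deviation from the si-NC mean was -0.2154, 0.1532 and 0.0688 on si-lncMGPF replicates 1, 2 and 3, and -0.0082, 0.0201 and -0.0159 on si-NC replicates 1, 2 and 3. The 3 si-lncMGPF arrays thus lay on either side of 3 si-NC arrays that stayed close together.

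**Figure D4:**
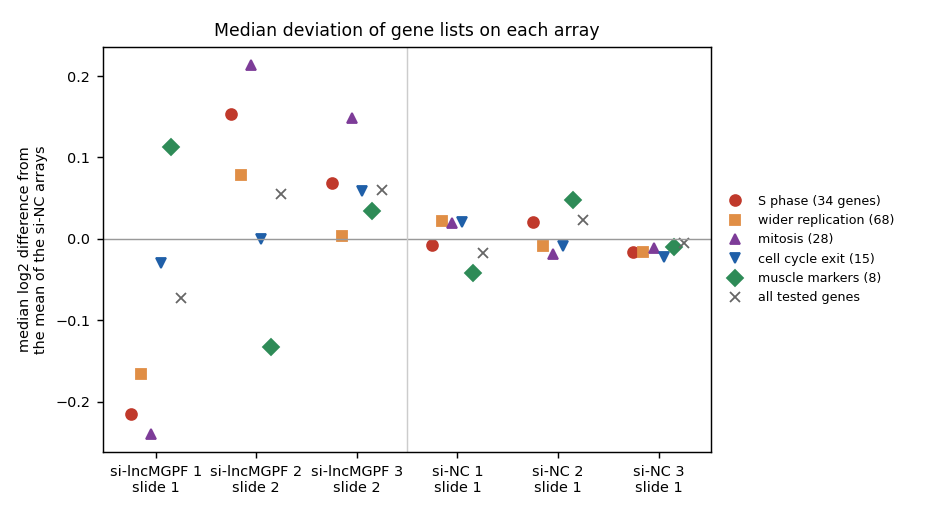
Median log2 difference from the mean of the si-NC arrays for 5 gene lists and for all tested genes on each array, with the 3 si-lncMGPF arrays left of the 3 si-NC arrays. S phase, wider replication and mitosis medians lie between -0.24 and -0.17 on si-lncMGPF replicate 1 and above 0 on replicates 2 and 3; on the si-NC arrays all lists lie within 0.05 of 0.

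Other genes of replication and division were counted from lists chosen by function. Of 69 further replication genes 68 were tested and limma called 0. An unadjusted p below 0.05 was seen for 6 (1 of them higher, the others lower), against 14.2% of all tested genes. The median of the 68 genes was -0.03, with -0.17 on slide 1 and 0.06 on slide 2. Geminin (Gmnn), the inhibitor of CDT1, had -0.17, the origin subunit gene Orc6 0.17, the kinase activator gene Dbf4 0.16, Pole of DNA polymerase epsilon -0.15, cyclin A2 (Ccna2) 0.04 and Rpa2 of the single-strand binding protein -0.04. Cdc7, the kinase that DBF4 activates, was not tested because its probes were above background on 1 array each.

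Mitosis and cell cycle exit genes gave no call either. Of 28 mitosis genes limma called 0, with an unadjusted p below 0.05 for 1, the mitotic kinase gene Aurkb (14.2% of all genes). The median of the 28 was 0.09, at -0.24 on slide 1 and 0.16 on slide 2. Aurkb, named after its values were seen, had 0.5371, 0.1478 and 0.1368 on the si-lncMGPF arrays and 0.6834, 0.6426 and 0.6523 on the si-NC arrays. All si-lncMGPF arrays were lower, the slide 2 arrays most, by a log2 difference of -1.57 (SE 0.50, limma adjusted p = 0.246), at -0.30 on slide 1 and -2.21 on slide 2. Mki67, the proliferation marker, had a log2 difference of -0.01, topoisomerase Top2a 0.19, cyclin B1 (Ccnb1) 0.12 and the mitotic kinase Cdk1 -0.17. A second Cdk1 probe had -1.49 without overlap of the groups (limma adjusted p = 0.243), and the other had -0.16 with overlap. Of 16 exit genes 15 were tested and limma called 0, with an unadjusted p below 0.05 for 1 (14.2% of all genes). It was E2f4, a repressive E2F that was named after its values were seen (log2 difference -0.45). The median of the 15 was 0.01, at -0.03 on slide 1 and -0.04 on slide 2, and 7 of the 15 had opposite signs on the 2 slides (48.2% of all genes). The difference between this list and the S phase list was not tested.

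Cdkn1a, the CDK inhibitor p21 that rises as myoblasts leave the cycle, had 13.62, 14.36 and 15.48 on the si-lncMGPF arrays and 12.19, 12.87 and 12.63 on the si-NC arrays. All si-lncMGPF arrays were higher, by 0.20 on the log2 scale (limma adjusted p = 0.329), while a second, dimmer probe had 0.08 with overlap. Rb1, the retinoblastoma gene, was lower without overlap at -0.14 (limma adjusted p = 0.486). The inhibitors Cdkn1c and Cdkn1b had 0.36 and -0.14, and the D-type cyclins Ccnd1 and Ccnd3 had 0.25 and -0.14. The 8 muscle markers had medians of 0.11, -0.13 and 0.03 on si-lncMGPF replicates 1, 2 and 3, which is the opposite order by array from S phase for replicates 1 and 2, and their part in the S phase values was not tested. Of 9 leukocyte, endothelial and adipocyte markers 5 were tested and limma called 0, and of 3 reserve cell markers (Pax7, Cd34 and Spry1) it tested 3 and called 0. Over all arrays Pax7 had 0.10, Cd34 0.34 and Spry1 -0.22. Spry1 was lower and a second, dimmer Cd34 probe (0.51) higher without overlap of the groups, where 22.4% of all tested genes did not overlap. Pecam1, an endothelial adhesion gene, had -0.04 on slide 1 and 1.02 on slide 2, while Kdr, also endothelial, had 0.01 and -0.19. Fabp4, a fatty acid carrier of adipocytes, had -0.25 and 0.46. The leukocyte markers had -0.28 and -0.06 for Ptprc, and 0.20 and 0.12 for Adgre1. Whether other cells bear on the S phase values was not tested.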

How the data were processed

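Per the labels, Cy3-labelled total RNA of 6 C2C12 samples was hybridised to 1-colour Agilent arrays. The deposited scanner tables hold intensity values from Feature Extraction 11.0.1.1, already background-subtracted per the file headers. In the authors' series table the values equalled these at all 44397 spots of each array. Outlier spots (117 to 134 per array) were left out here, and no spot was saturated. Each value is the log2 of the deposited processed signal after division by the 75th percentile of that array, and spots of a probe were averaged. A common shift of most transcripts is therefore invisible.

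The test covered 24661 of 39429 probes, those well above background on all arrays of 1 group or of both. Accessions were given names, and no positions, from a RefSeq gene table whose build is not that of the array. It named 27234 probes, 18528 of them tested, for 14265 tested genes.

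The comparison used limma 3.58.1 under R 4.3.3, with no covariate and Benjamini-Hochberg adjustment over all tested probes at a threshold of 0.05. The test was checked on simulated data that held no slide effect, so that check does not cover the uneven placing of the groups on the slides. All S phase genes were named, with full statistics for the 6 of smallest p, and 18 genes of the other lists were picked by function, of which 1 is not reported here. The members and lists were chosen with earlier results of these data known, so lists are described by counts and medians. Normexp was planned on mean spot signals and run on median ones. Alternatives are given in the closing section.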

Additional observations from a re-analysis of the deposited data

How the results depend on the processing

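No S phase probe passed under quantile normalization, median centring, normexp with an offset of 50, either other filter on dim probes, slide as a block or as a random block, the slide 1 arrays alone, or the series table's values. Array weights called 5 of 10149 among all probes, and leaving out 1 array called 0 to 2. The count over all probes was 6 with quantile normalization, 8 with normexp, 0 with no filter, 10 with slide as a block, 1 on slide 1 alone and 0 to 4105 without 1 array. It was 4105 when the first si-lncMGPF array was left out, 4 for replicate 2 of that group, and 0 for its replicate 3 or any 1 of the si-NC arrays. The replicate number as a block called 0 of all probes and 0 of S phase. Deviations from the group means of same-numbered samples had r of 0.185, 0.319 and -0.058. Samples of different numbers were not compared in this way, so these values cannot tell whether the numbers pair the samples. The S phase median was -0.2154 with slide as a block or on slide 1 alone, where the estimate is by construction that of 1 si-lncMGPF array, and -0.1119 to 0.0781 without 1 array. In alternatives chosen after seeing the data, its slide 1 and slide 2 values were -0.1746 and 0.0679 with quantile normalization, -0.265 and 0.1164 with median centring, and -0.2121 and 0.0616 with normexp. Ccne2 stayed negative (-1.4747 to -0.5612), Cdc6 negative (-0.4882 to -0.1777) and Tyms positive (0.2277 to 0.4804) in all alternatives run.

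None of the log2 differences that turned sign had passed the test, and the cause was not tested. Under array weights these were E2f8 0.0751, Fen1 0.0635, Mcm10 0.0710 and E2f1 0.0305. With median centring they were E2f8 0.0040 and Mcm10 0.0059, and with quantile normalization Cdt1 -0.0014, Mcm3 -0.0124 and Mcm10 0.0102. With normexp they were Cdt1 -0.0625, Mcm5 -0.0159, Lig1 -0.0544, Mcm3 -0.0540, Pcna -0.0080 and Rfc4 -0.0351. With slide as a block, and equally on slide 1 alone, they were Cdt1 -0.3567, Mcm7 -0.2023, Mcm5 -0.2086, Lig1 -0.0474, Mcm4 -0.1003, Orc1 -0.1597, Mcm6 -0.2595, E2f2 -0.1281, Mcm3 -0.3187, Pcna -0.2222, Rfc4 -0.2043 and Rrm2 -0.2943. With slide as a random block they were Cdt1 -0.2512, Mcm7 -0.1152, Mcm5 -0.1449, Lig1 -0.0272, Mcm4 -0.0213, Orc1 -0.0786, Mcm6 -0.1512, E2f2 -0.0659, Mcm3 -0.2242, Pcna -0.1520, Rfc4 -0.1357 and Rrm2 -0.1845. Leaving out 1 array gave these ranges: Cdc45 -0.0767 to 0.2520, Cdk2 -0.1321 to 0.3055, Cdt1 -0.1105 to 0.1835, E2f1 -0.1243 to 0.0240, E2f8 -0.1133 to 0.1438, Fen1 -0.1276 to 0.1255, Mcm10 -0.1833 to 0.1959, Mcm3 -0.1182 to 0.1651, Mcm5 -0.0504 to 0.1173, Mcm6 -0.0054 to 0.2949, Mcm7 -0.0090 to 0.2438, Pcna -0.0785 to 0.1372, Pola1 -0.1559 to 0.0588, Pold1 -0.1842 to 0.0507, Prim1 -0.1675 to 0.0511, Rfc3 -0.0126 to 0.2620, Rfc4 -0.1133 to 0.1467, Rrm2 -0.0596 to 0.2681, Slbp -0.0423 to 0.3534, Tk1 -0.2325 to 0.0764, Uhrf1 -0.1754 to 0.0047. On the slide 2 arrays 57.3% and 56.93% of probes were above background, against 64.13% to 65.28% on the slide 1 arrays. Cdc45, Orc1 and Ccne2 had relative signals of at most 0.1996 on slide 2, and the part of dim signal in their differences was not tested.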

Other observations

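Further replication genes with an unadjusted p below 0.05 in limma are described here, and they were chosen after their values were seen. Dtl, an adaptor of the ubiquitin ligase that destroys CDT1 in S phase, had 0.4409, 0.4719 and 0.4379 on the si-lncMGPF arrays and 0.577, 0.5683 and 0.5729 on the si-NC arrays. The log2 difference was -0.35 (SE 0.08, limma adjusted p = 0.199), at -0.38 on slide 1 and -0.33 on slide 2. Rnaseh2b, a subunit of the enzyme that removes ribonucleotides from DNA, had 2.731, 3.028 and 2.943 on the si-lncMGPF arrays and 3.585, 3.652 and 3.549 on the si-NC arrays. Its log2 difference was -0.31 (SE 0.09, limma adjusted p = 0.223), at -0.40 on slide 1 and -0.27 on slide 2.

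Recql4, a helicase of replication initiation, had -0.30 on 1 probe and -0.01 on another. Pole4, an accessory subunit of DNA polymerase epsilon, had -0.53, at -0.14 on slide 1 and -0.72 on slide 2. Orc4, of the origin recognition complex, had 0.26 on 1 probe and 0.08 on another. These 5 genes, each by its brighter probe, had groups that did not overlap, as had 22.4% of all tested genes and 14.7% of the further replication genes. They were picked by p from the same values, so the lack of overlap adds no support. None of the 5 passed limma's test after adjustment over all probes.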
